A study of Mus musculus with 7 samples.

Results

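Astrocytes hold most of the glycogen of the brain and can pass lactate made from it or from blood glucose to neurons, and this section follows the genes of that route in amygdala astrocytes in which Egfr was targeted. The set holds 10 genes, taken by name from the gene column of the count table: the lactate dehydrogenases Ldha and Ldhb, the monocarboxylate transporters Slc16a1 and Slc16a3, the glucose transporter Slc2a1, the glycogen phosphorylases Pygb and Pygm, the glycogen synthase Gys1, the branching enzyme Gbe1 and the glycolytic regulator Pfkfb3. They are 10 of 35976 genes in the table and took between 0.0867% and 0.147% of the counts of a sample. All 10 passed the filter on low counts.

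The study asked about the receptor EGFR in amygdala astrocytes of male C57BL/6J mice under chronic stress, and RNA-seq counts of 7 libraries were analysed, 3 sgEgfr and 4 sgRosa. The sgEgfr mice received, in the amygdala, an adeno-associated virus (AAV) that carried Cas9 under GfaABC1D, a short promoter derived from GFAP that is active mainly in astrocytes, with a guide RNA against Egfr. The sgRosa mice received the same Cas9 with a guide against Rosa, a locus used as a neutral target for editing. Both groups had more than 2 weeks of expression, 7 days of restraint in tubes, fear conditioning for 1 day and extinction sessions over 3 days before papain dissociation and enrichment on beads for ACSA-2, an astrocyte surface antigen. There was no unstressed group, so that stress itself is not a comparison here, and the age of the mice was not given. The labels do not say how many mice gave each library or what share of the astrocytes was edited, and p-values measure the spread between these libraries.

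Totals ranged from 5852870 to 22579222 counts per library, so that 3 counts stood for 0.133 to 0.513 CPM, which is a count scaled to the library total. The libraries sgRosa 3 and sgRosa 4 were near-identical: their chi-square over genes was 1.04 per degree of freedom, against 34.3 to 121 for the other 8 pairs that share a guide. Their counts were summed and used as 1 sample, sgRosa 3+4, which left 3 samples per guide. Between the 2 libraries, CPM of the 10 genes differed by a factor of 1.00 to 1.20. The sample sgRosa 2 stood apart in its astrocyte markers. Of 18 astrocyte markers, all were tested, none was at 0 in any group, and 16 were lowest in sgRosa 2. Their summed share of counts was 0.887% to 1.25% in sgEgfr samples and 0.561% to 1.41% in sgRosa samples, the lowest being sgRosa 2. Oligodendrocyte markers, 18 of 18 tested, took more, 8.35% to 14.7% in sgEgfr samples and 7.50% to 11.2% in sgRosa samples, so that the bead fraction also held oligodendrocyte RNA.

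In the pathway itself, glucose enters through transporters such as GLUT1 (Slc2a1) and is either burned in glycolysis or stored by glycogen synthase and the branching enzyme. Glycogen phosphorylase breaks the store down again, and pyruvate from either source is turned to lactate or taken into mitochondria. Lactate dehydrogenase is a tetramer of A and B chains. The A chain, common in tissues that release lactate, favours the formation of lactate, while the B chain favours its use. Monocarboxylate transporters then carry lactate across the membrane, MCT4 (Slc16a3) with low affinity, suited to export, and MCT1 (Slc16a1) with higher affinity. EGFR is a receptor tyrosine kinase of the cell surface.

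The 4 paralogs whose ratios are followed here are shown with the 250 bases before an annotated start. They are shown because the windows printed for the A and B dehydrogenase genes differ in the sequence ACGTG. Coordinates are RefSeq of GRCm38.p6, and sequences are read 5′ to 3′ on the strand of the gene. Capitals mark ACGTG, 1 form of the core bound by hypoxia-inducible factors, or its reverse complement CACGT. Either can lie inside the E-box CACGTG. The form GCGTG was not searched for and stays in lower case, as in the Ldhb window. RefSeq held 2 promoter windows for Ldha, and the upstream one of these is shown at chr7:46845554-46845803 (plus strand). It lies inside the RefSeq span of Ldha, which begins at 46842274, and so precedes a start other than the most upstream one. Ldhb is at chr6:142507958-142508207 (minus strand), Pygb at chr2:150786546-150786795 (plus strand) and Pygm at chr19:6384158-6384407 (plus strand), each next to the start of its gene.
Ldha: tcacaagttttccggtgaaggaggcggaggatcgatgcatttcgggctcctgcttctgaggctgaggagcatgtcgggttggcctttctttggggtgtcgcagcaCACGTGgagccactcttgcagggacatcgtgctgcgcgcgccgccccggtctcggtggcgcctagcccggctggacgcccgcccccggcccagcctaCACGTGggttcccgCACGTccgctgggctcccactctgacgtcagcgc
Ldhb: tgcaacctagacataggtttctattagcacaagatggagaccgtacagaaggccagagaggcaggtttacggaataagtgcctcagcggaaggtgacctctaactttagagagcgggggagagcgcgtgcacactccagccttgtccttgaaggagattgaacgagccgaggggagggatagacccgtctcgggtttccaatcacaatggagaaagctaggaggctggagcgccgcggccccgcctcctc
Pygb: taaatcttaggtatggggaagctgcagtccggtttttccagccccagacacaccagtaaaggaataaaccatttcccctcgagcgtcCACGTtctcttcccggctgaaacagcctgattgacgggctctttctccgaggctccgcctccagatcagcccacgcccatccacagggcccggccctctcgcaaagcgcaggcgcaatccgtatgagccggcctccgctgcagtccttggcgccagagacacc
Pygm: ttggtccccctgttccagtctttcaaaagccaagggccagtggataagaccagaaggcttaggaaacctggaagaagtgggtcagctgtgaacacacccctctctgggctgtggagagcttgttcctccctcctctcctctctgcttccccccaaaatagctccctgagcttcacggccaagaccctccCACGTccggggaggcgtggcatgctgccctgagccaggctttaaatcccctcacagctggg
The Ldha window held 3 matches to ACGTG or CACGT, of which 2 were CACGTG, whereas its other window held 0. The Ldhb window also held 0, and the phosphorylase windows held 1 each. Of the 12 windows of the 10 genes, 8 held a match. These windows belonged to 7 of the genes, and the genes without a match were Ldhb, Gys1 and Gbe1. Over 32851 windows of 27025 genes, 16.6% held ACGTG on either strand and 6.02% held CACGTG. These matches describe the letters of the windows only.

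The targeted gene is given first. Egfr had 10.7, 5.69 and 8.04 CPM in sgEgfr samples 1 to 3, against 13.3, 2.87 and 10.6 CPM in sgRosa 1, sgRosa 2 and sgRosa 3+4. The groups overlapped, and the lowest value was that of sgRosa 2. Its log2 fold change, sgEgfr over sgRosa, was -0.13 with a standard error (SE) of 0.54 and a 95% confidence interval of -1.39 to 1.14, and it was -0.55 without sgRosa 2. It was above 0 without sgRosa 1 (0.27), sgEgfr 2 (0.056) or sgRosa 3+4 (0.019). A count over the whole gene does not show whether a transcript carries an edit, so the level of Egfr does not check the labels.

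None of the 10 genes was called as different between the guides. In edgeR's quasi-likelihood test with Benjamini-Hochberg adjustment over 14936 genes, 0 of the 10 had an adjusted p under 0.05, where the same was true of 0% of all genes tested, and 0 had an unadjusted p under 0.05, against 2.68% of all genes. DESeq2 and limma-voom also called 0, with 1 of the 10 (Slc2a1) and 0 at an unadjusted p under 0.05. The log2 fold change was above 0 for 5 of the 10 and below 0 for 5, with a median of 0.03, against a median of 0.02 over all genes, 52.9% of which were above 0. The ranges of the groups did not overlap for 1 of the 10 (Pfkfb3), against 7.61% of all genes. The common biological coefficient of variation was 0.386.

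**Figure D1:**
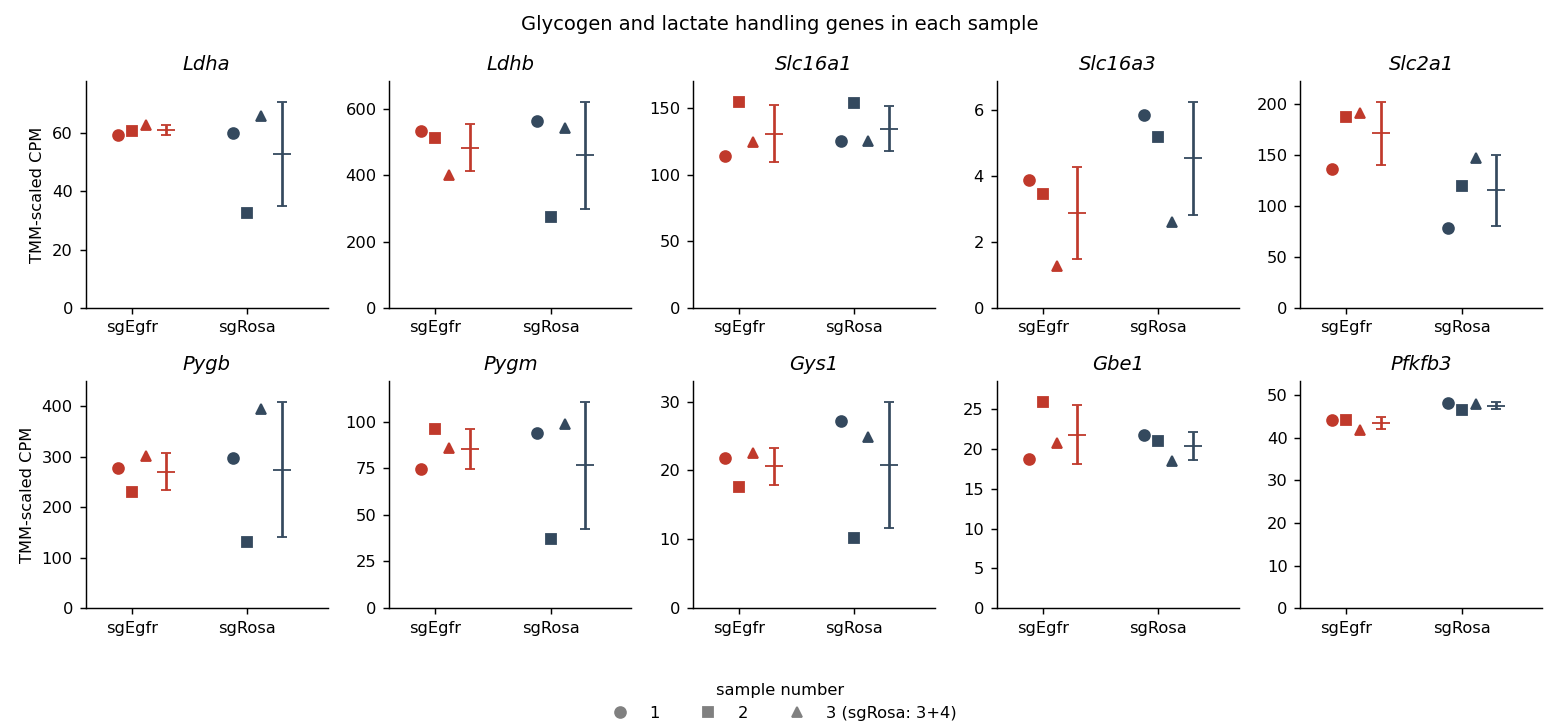
TMM-scaled CPM of each of the 10 genes (y axis, from 0) in the 3 sgEgfr samples (left) and the 3 sgRosa samples (right), with marker shape giving the sample number and bars the mean ± SD. Ldha, Ldhb, Pygb, Pygm and Gys1 have a single low point, sgRosa 2, and the groups are apart for Pfkfb3.

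**Figure D2:**
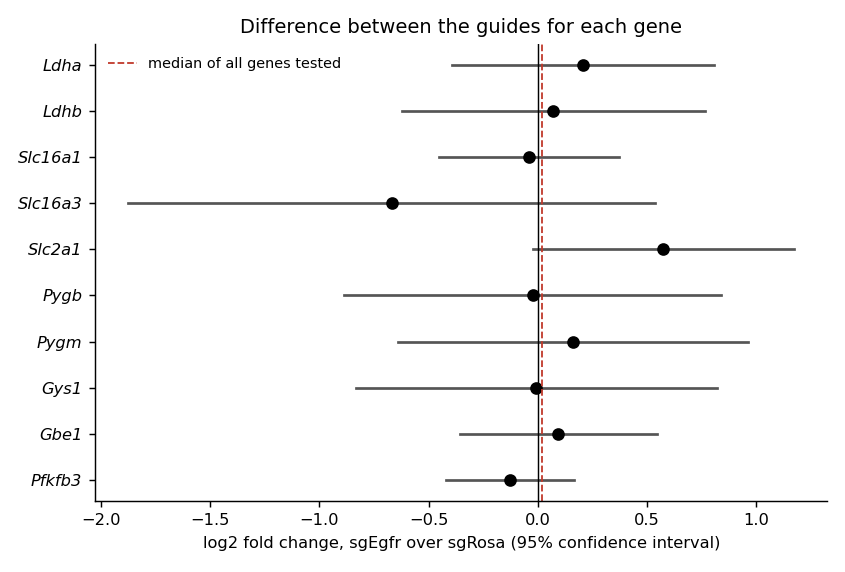
Log2 fold change of each gene, sgEgfr over sgRosa (x axis), with its 95% confidence interval from the edgeR fit; the dashed line is the median over all genes tested. All 10 intervals include 0, and that of Slc2a1, -0.02 to 1.17, does so by the least.

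The dehydrogenases come first. Ldha, on chromosome 7, had 59.3, 60.8 and 62.6 CPM in sgEgfr samples 1 to 3, against 60.1, 32.4 and 65.9 CPM in sgRosa 1, sgRosa 2 and sgRosa 3+4. The 3 sgEgfr samples lay close together, while sgRosa 2 lay far below the remaining samples, and the groups overlapped. The means were 60.9 ± 1.66 CPM in sgEgfr and 52.8 ± 17.9 CPM in sgRosa (SD, n = 3 each). The log2 fold change of 0.21 (SE 0.26, interval -0.39 to 0.80) turned to -0.052 without sgRosa 2. Ldhb, on chromosome 6, had 536, 515 and 403 CPM in sgEgfr samples, against 566, 275 and 543 CPM in sgRosa samples. Here sgEgfr 3 was the lower of its group and sgRosa 2 again the lowest of all, and the groups overlapped. Its log2 fold change of 0.07 (SE 0.30, interval -0.62 to 0.76) was -0.20 without sgRosa 2 and -0.010 without sgEgfr 1.

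Of the lactate transporters, Slc16a1 was much the more abundant. It had 114, 155 and 124 CPM in sgEgfr samples, against 125, 154 and 125 CPM in sgRosa samples. In each group sample 2 was the high one, which were also the samples with the largest share of oligodendrocyte markers, 14.7% in sgEgfr 2 and 11.2% in sgRosa 2; the part of those cells in the level was not tested. Between the guides its log2 fold change was -0.04 (SE 0.18, interval -0.45 to 0.37), 0.05 without sgEgfr 1 and 0.064 without sgRosa 2. Slc16a3 had the fewest counts of the 10 genes, with 61, 53 and 29 counts in sgEgfr samples, against 83, 99 and 41 counts in sgRosa samples. That is 3.87, 3.47 and 1.27 CPM in sgEgfr samples, against 5.86, 5.17 and 2.61 CPM in sgRosa samples. The lowest value was in sgEgfr 3 and the groups overlapped. Its log2 fold change was -0.67 (SE 0.52, interval -1.87 to 0.54), -0.31 without sgEgfr 3, -1.20 with the endothelial marker score as a covariate, and below 0 in every fit run.

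Slc2a1, which encodes GLUT1 of the blood-brain barrier endothelium and of astrocytes, came nearest to a difference. It had 136, 187 and 191 CPM in sgEgfr samples, against 78.5, 120 and 147 CPM in sgRosa samples. The lowest sgEgfr sample, sgEgfr 1, lay below the highest sgRosa sample, sgRosa 3+4, and both other sgEgfr samples lay above all sgRosa samples. Mean levels were 171 ± 30.9 CPM in sgEgfr and 115 ± 34.4 CPM in sgRosa (SD, n = 3 each), a log2 fold change of 0.57 (SE 0.26) with an unadjusted p of 0.0579 and an adjusted p of 0.997 in edgeR. The fold change ranged from 0.36 without sgRosa 1 to 0.79 without sgRosa 3+4 and never turned below 0. Its unadjusted p was 0.0388 in DESeq2, 0.0531 in limma-voom, 0.0374 in edgeR with no filter and 0.0138 with the endothelial covariate; it lay between 0.0231 (without sgRosa 3+4) and 0.154 (without sgEgfr 2) with 1 sample left out. Its adjusted p was 0.738 or more in every fit run with edgeR, DESeq2 or limma-voom. Endothelial markers, 16 of 16 tested and none at 0, took 0.0102% to 0.0123% of counts in sgEgfr samples and 0.00705% to 0.0108% in sgRosa samples. In bulk RNA, more cells of a type and more RNA per cell cannot be told apart. Per 1000 counts of the endothelial markers, Slc2a1 had 1158, 1446 and 1892 counts in sgEgfr samples, against 724, 1652 and 2082 counts in sgRosa samples, a log2 difference of 0.12 (two-sided exact permutation p = 0.9; the smallest p that 3 samples against 3 allow is 0.1). With the endothelial marker score as a covariate of the edgeR fit the log2 fold change was instead 1.04, so that the 2 ways of taking these markers into account moved it in opposite directions. Heat shock genes, 13 of 13 tested, were also lowest in sgRosa 1, the sample where Slc2a1 was lowest, with 0.315% to 0.351% of counts in sgEgfr samples and 0.229% to 0.337% in sgRosa samples. Their part in the level of Slc2a1 was not tested.

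The phosphorylases release glucose units from glycogen, Pygb being named the brain form and Pygm the muscle form, and both were well above the limit of detection. Pygb had 278, 230 and 302 CPM in sgEgfr samples, against 298, 130 and 395 CPM in sgRosa samples. Pygm had 74.5, 96.0 and 85.6 CPM in sgEgfr samples, against 93.6, 37.2 and 98.5 CPM in sgRosa samples. For each, sgRosa 2 was the lowest sample and sgRosa 3+4 the highest, so that the sgEgfr samples lay inside the range of the sgRosa samples. The log2 fold change of Pygb was -0.02 (SE 0.37, interval -0.89 to 0.84). It was -0.36 without sgRosa 2 and 0.34 without sgRosa 3+4, and above 0 also without sgEgfr 2 (0.060) or sgRosa 1 (0.040). That of Pygm was 0.16 (SE 0.34, interval -0.64 to 0.96), and -0.17 without sgRosa 2.

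On the side of synthesis, Gys1 encodes the glycogen synthase of muscle and brain. It had 21.8, 17.5 and 22.5 CPM in sgEgfr samples, against 27.2, 10.2 and 24.8 CPM in sgRosa samples, again with the sgEgfr samples inside the range of the sgRosa samples. Its log2 fold change was -0.0074 (SE 0.35, interval -0.83 to 0.82); it was -0.34 without sgRosa 2, 0.24 without sgRosa 1, 0.14 without sgRosa 3+4 and 0.078 without sgEgfr 2. Gbe1, which adds the branch points, had 18.7, 25.9 and 20.7 CPM in sgEgfr samples, against 21.8, 21.0 and 18.4 CPM in sgRosa samples. The highest value was in sgEgfr 2 and the groups overlapped. Its log2 fold change was 0.09 (SE 0.19, interval -0.36 to 0.54), and -0.069 without sgEgfr 2. For neither gene was a difference detectable at this spread, and the intervals held values of either sign.

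Pfkfb3, whose product makes the strongest known activator of phosphofructokinase and so speeds glycolysis, was the steadiest of the 10. It had 44.3, 44.3 and 42.0 CPM in sgEgfr samples, against 48.2, 46.6 and 47.9 CPM in sgRosa samples. All 3 sgEgfr samples lay below all 3 sgRosa samples, a pattern shown in this direction by 3.85% of all genes tested. The means were 43.5 ± 1.34 CPM in sgEgfr and 47.6 ± 0.881 CPM in sgRosa (SD, n = 3 each). A log2 fold change of -0.13 (SE 0.13, interval -0.42 to 0.16) had an unadjusted p of 0.338 and an adjusted p of 0.997 in edgeR, and it lay between -0.16 and -0.10 when any 1 sample was left out. Of 2281 genes within 0.5 log2 units of its mean level, 1.93% had a smaller SD over the 6 samples. The edgeR test moderates the spread of each gene towards that of other genes.

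The 10 genes fell into 2 kinds by their behaviour in sgRosa 2, a split made after the values were seen. Ldha, Ldhb, Pygb, Pygm and Gys1 were lowest in sgRosa 2, at 0.499 to 0.683 of the next lowest sample. That is 5 of 10 genes lowest in sgRosa 2, against 24.4% of all genes tested, and 5 of 10 under 0.75 of the next lowest sample there, against 9.82%. The other genes, Slc16a1, Slc16a3, Slc2a1, Gbe1 and Pfkfb3, were in sgRosa 2 at 1.11 to 4.08 times the lowest of the other samples. For the first 5 genes the highest sample was 2.04 to 3.03 times the lowest in CPM, and 1.21 to 1.54 times when each was set against 1000 counts of the astrocyte markers of the same sample. For the other 5 genes the same ratio was 1.15 to 4.62 in CPM and 2.54 to 8.68 against astrocyte markers. Since the split was made on sgRosa 2, where the astrocyte markers were also lowest, it fixed the direction of these changes of scale, and they are given as a description. Per 1000 astrocyte marker counts, Pygb had 23.4, 23.2 and 26.4 counts in sgEgfr samples, against 24.0, 24.2 and 28.1 counts in sgRosa samples. On the same scale Ldha had 5.00, 6.12 and 5.47 counts in sgEgfr samples, against 4.84, 6.02 and 4.68 counts in sgRosa samples. In sgRosa 2 both were then within the range of the other samples. Why sgRosa 2 held fewer counts of astrocyte markers was not tested.

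**Figure D3:**
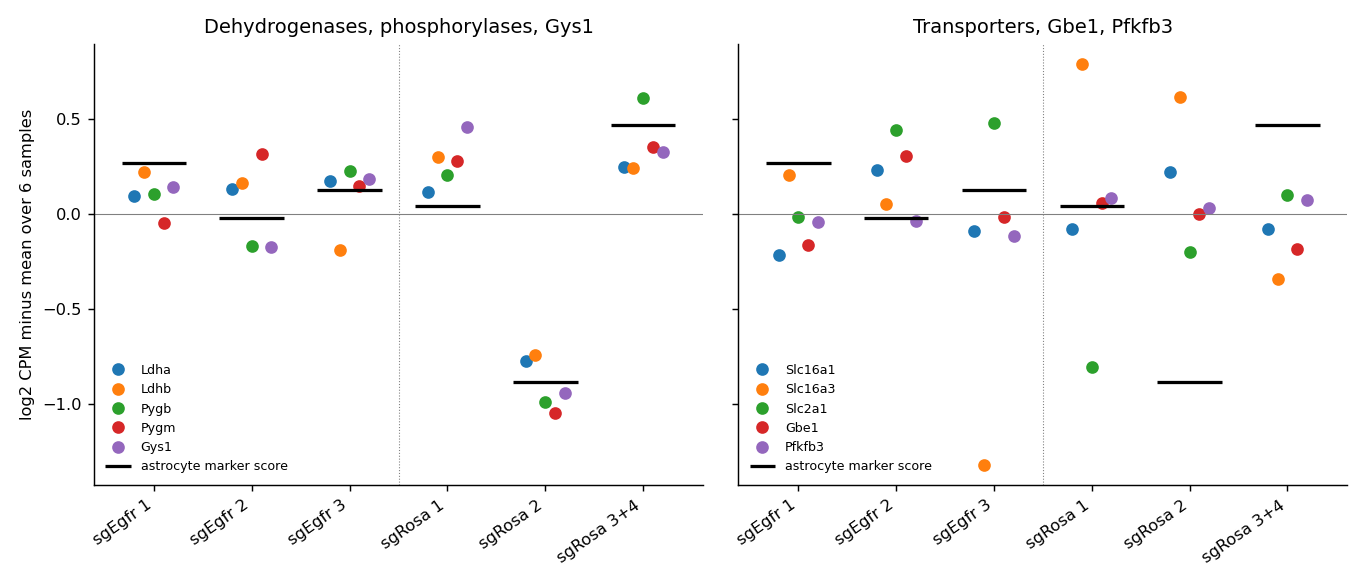
Log2 CPM of each gene minus its mean over the 6 samples (y axis), by sample (x axis, sgEgfr left of the dotted line and sgRosa right), with black bars for the mean of the 18 astrocyte markers on the same scale. In sgRosa 2 the marker score is -0.88 and the 5 genes of the left panel are at similar depth, while those of the right panel are not.

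The profile of each gene over the 6 samples was set beside the mean profile of each marker list, with the root mean square distance in log2 CPM as the measure. The nearest list was that of astrocytes for Ldha (0.143), Ldhb (0.215), Pygb (0.139), Pygm (0.229) and Gys1 (0.201). It was that of oligodendrocytes for Slc16a1 (0.184) and Slc16a3 (0.584), heat shock for Slc2a1 (0.166), and pericytes for Gbe1 (0.211) and Pfkfb3 (0.0941), whose list hardly varied. Among themselves the nearest pairs were Slc16a1 and Gbe1 (0.123), Pygb and Gys1 (0.159), and Ldha and Pygm (0.168). Over 9031 genes with a mean of at least 10 CPM, the genes nearest to Ldha were Lppos (0.0309), Aldh4a1 (0.049) and Rnf182 (0.0616), those nearest to Slc2a1 were Enc1 (0.0949), Osbpl5 (0.0997) and Poc5 (0.149), and those nearest to Pygm were Cenpb (0.0869), Morn2 (0.0943) and Mtfp1 (0.0947). These are descriptions over 6 samples that share their libraries and depth. The genes nearest to the astrocyte list are those split off above as lowest in sgRosa 2. The astrocyte markers were also lowest there, so the split in part fixed that nearness.

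Levels can be compared between genes only per length, here CPM per kilobase of merged exons, as mean ± SD over all 6 samples. Ldhb led with 301 ± 71.7, followed by Pygb with 56.6 ± 18.3, Slc2a1 with 40.8 ± 12.1, Slc16a1 with 29.99 ± 3.90 and Pygm with 25.1 ± 7.18. Ldha had 17.2 ± 3.69, Pfkfb3 6.02 ± 0.323, Gys1 4.32 ± 1.26, Gbe1 3.94 ± 0.506 and Slc16a3 0.697 ± 0.315 CPM per kilobase. Ldhb stood above Pygb, Pygm above Ldha, Ldha above Pfkfb3, Pfkfb3 above Gys1 and Gbe1 above Slc16a3 in 6 of 6 samples. The neighbours Pygb and Slc2a1, Slc2a1 and Slc16a1, Slc16a1 and Pygm, and Gys1 and Gbe1 kept their order in 4 of 6 samples only. With the length of the principal transcript in place of merged exons, Ldha moved to 32.2 CPM per kilobase, above Slc16a1 at 29.99 and Pygm at 28.1. On that length Gbe1 at 7.41 moved above Gys1 at 5.63. That choice was made after seeing the data.

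Ratios of paralogs within a sample do not depend on its depth. Ldhb had 9.04, 8.46 and 6.43 counts per count of Ldha in sgEgfr samples, against 9.42, 8.49 and 8.23 in sgRosa samples. The low one was sgEgfr 3, whose 95% Clopper-Pearson interval of 6.08 to 6.80 lay below those of all other samples, the nearest being 7.72 to 8.79 in sgRosa 3+4. sgRosa 2, low for both genes, was not apart in their ratio. The means were 7.98 ± 1.37 in sgEgfr and 8.71 ± 0.623 in sgRosa (SD, n = 3 each), with a log2 difference of -0.14 and an exact two-sided permutation p of 0.5. Without sgEgfr 3 the difference was 0.0078. Per length of merged exons the ratio was 13.6 to 19.9, and per length of the principal transcripts 8.71 to 12.8. Counts per length were thus higher for Ldhb than for Ldha in every sample. Ldha has processed copies and the treatment of multi-mapping reads is not given, so the size of the ratio is uncertain to that extent.

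Pygb had 3.73, 2.40 and 3.53 counts per count of Pygm in sgEgfr samples, against 3.19, 3.50 and 4.01 in sgRosa samples. Here sgEgfr 2 was the low one, with an interval of 2.26 to 2.55 against 3.00 to 3.39 in sgRosa 1, the next lowest. The means were 3.22 ± 0.718 in sgEgfr and 3.57 ± 0.415 in sgRosa (SD, n = 3 each), the log2 difference was -0.17 (exact two-sided permutation p = 0.7), and it was 0.031 without sgEgfr 2. Per length of merged exons the brain form exceeded the muscle form by 1.60 to 2.68 times, and by 1.76 to 2.95 times per length of the principal transcripts. Slc16a1 had 29.4, 44.6 and 97.9 counts per count of Slc16a3 in sgEgfr samples, against 21.3, 29.7 and 48.0 in sgRosa samples. The high value of sgEgfr 3 rests on 29 counts of Slc16a3, with an interval of 68.0 to 146. The log2 difference of 0.69 (exact two-sided permutation p = 0.5) was 0.21 without sgEgfr 3. Adjusted over the 3 ratios, the p-values of the exact permutation tests were all 0.7. The intervals cover counting error only.

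**Figure D4:**
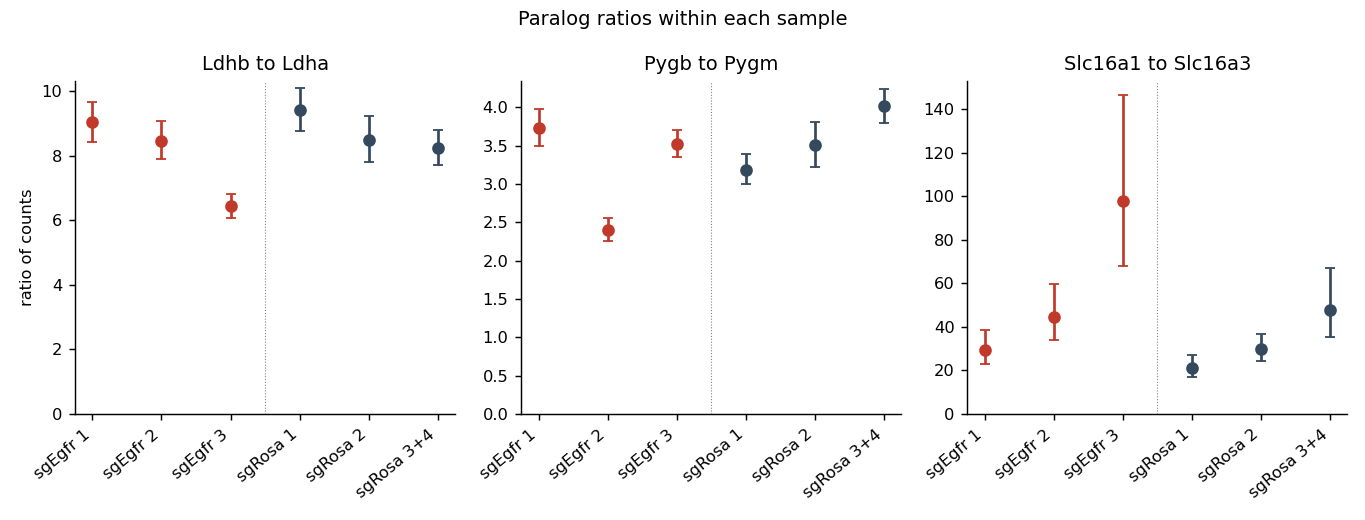
Count ratio of each pair of paralogs (y axis, linear, from 0) in the sgEgfr samples (left) and the sgRosa samples (right), with 95% Clopper-Pearson intervals. A single sgEgfr sample is apart in each panel: sgEgfr 3 at 6.43 for Ldhb to Ldha, sgEgfr 2 at 2.40 for Pygb to Pygm, and sgEgfr 3 at 97.9 for Slc16a1 to Slc16a3.

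The rest of the pathway was read from 6 lists of 105 genes, of which 88 were tested. In edgeR 0 of the 88 were called, as by DESeq2 and limma-voom, against 0% of all genes, and 2 had an unadjusted p under 0.05 (Eno2 and Adm), against 2.68% of all genes. The log2 fold change was above 0 for 58 and below 0 for 30, against 52.9% of all genes tested above 0. Its median over the 88 genes was 0.07, against 0.02 over all genes tested. In 3 of the 88 the groups did not overlap, namely Eno2, Slc16a4 and Vegfa, the last named after its values were seen, against 7.61% of all genes tested. Of the glycogen list 22 of 24 were tested, 13 above and 9 below 0, with a median of 0.05; the pair with the smallest p was Ppp1r3g, a subunit that brings protein phosphatase to glycogen, at 0.67 (SE 0.62), and Gsk3b, a kinase that inhibits glycogen synthase, at -0.28 (SE 0.25). Leaving out 1 sample in turn moved Ppp1r3g between 0.11 (without sgEgfr 3) and 1.14 (without sgRosa 1), and Gsk3b between -0.59 (without sgEgfr 3) and -0.13 (without sgEgfr 2). Of the lactate and pyruvate list 20 of 23 were tested, 13 above and 7 below 0, with a median of 0.05. Slc16a4, an orphan relative of the lactate transporters, was at 1.04 (SE 0.52) with a mean of 0.826 CPM. Emb, the embigin chaperone of such transporters, had 6.40, 2.36 and 52.8 CPM in sgEgfr samples, against 2.47, 1.93 and 10.7 CPM in sgRosa samples. Its log2 fold change of 2.03 (SE 1.16) was -0.20 without sgEgfr 3.

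Of the glucose transport list 8 of 11 were tested, 4 above and 4 below 0, with a median of 0.04, led by Slc2a3, the neuronal glucose transporter, at 0.72 (SE 0.39), and Slc2a6 at 0.67. With 1 sample left out, Slc2a3 lay between 0.39 (without sgEgfr 3) and 1.01 (without sgEgfr 2), and Slc2a6 between 0.25 (without sgRosa 3+4) and 1.06 (without sgEgfr 3). Of the glycolysis list 17 of 22 were tested, 13 above and 4 below 0, with a median of 0.11, and 12 of the 17 were lowest in sgRosa 2, as were 24.4% of all genes tested. Eno2, the neuronal enolase, had 20.9, 17.3 and 16.7 CPM in sgEgfr samples, against 10.2, 10.97 and 15.1 CPM in sgRosa samples, with a log2 fold change of 0.60 (SE 0.24); its unadjusted p was 0.0364 and its adjusted p 0.997 in edgeR. Neuron markers, of which 14 of 15 were tested with Eno2 among them, took 0.0564% to 0.0623% of counts in sgEgfr samples and 0.0334% to 0.0565% in sgRosa samples, with none at 0, and their part in the level of Eno2 was not tested. Pkm, the pyruvate kinase, was at 0.22, or 0.022 without sgRosa 2. The list around Pfkfb3 held its family members with Tigar and the fructose bisphosphatases Fbp1 and Fbp2. Of this list 3 of 6 were tested, 2 above and 1 below 0, with a median of 0.04. Tigar, a phosphatase that opposes glycolysis, was at -0.49 (-0.090 without sgEgfr 2 and -0.80 without sgEgfr 3). Pfkfb2 was at 0.07, or -0.022 without sgRosa 1 and -0.018 without sgRosa 3+4. Of the hypoxia list 18 of 19 were tested, 13 above and 5 below 0, with a median of 0.10. Adm, which encodes adrenomedullin, was at 1.36 (SE 0.54, unadjusted p 0.037 and adjusted p 0.997 in edgeR). P4ha2, a collagen prolyl hydroxylase, was at 1.94 (SE 0.85), or 0.54 without sgEgfr 3. Vegfa, whose groups did not overlap, went the other way, at -0.78 (SE 0.37). Its mean was 3.54 CPM in sgEgfr and 6.07 CPM in sgRosa.

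**Figure D5:**
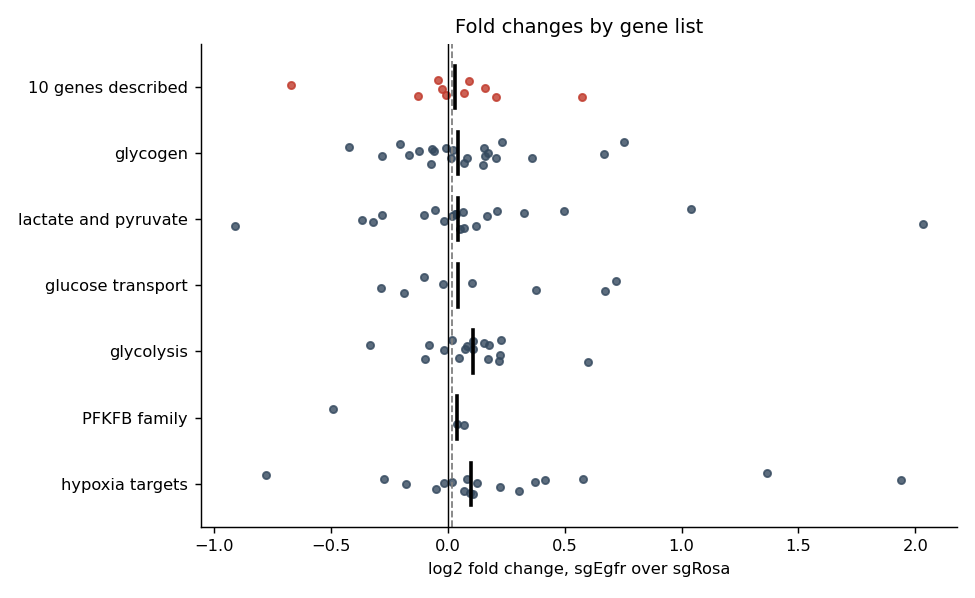
Log2 fold change, sgEgfr over sgRosa, (x axis), of the 10 genes (top, red points) and of every tested gene of the 6 pathway lists (points below), with a black bar at each median and a dashed line at the median over all genes tested. The medians of the 6 lists lie between 0.04 and 0.11, against 0.02 over all genes tested.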

How the data were processed

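RNA-seq counts of 7 libraries were used. The authors deposited raw whole-number counts for each gene, both in 1 table for the series and in 1 file per library with the same values. Per the submitters' processing notes the build was mm10 and the tools included STAR 2.7.5c, fastp 0.23.2 and featureCounts 2.0.1. The sources used here do not give the annotation, the strand setting or the treatment of multi-mapping reads. Counts of Ldha, Slc16a3, Slc2a1, Gys1 and Pfkfb3, which overlap other RefSeq genes, and of Ldha, which has processed copies, are uncertain to that extent.

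Genes passing filterByExpr (minimum count 10) were tested with edgeR 4.0.16 (R 4.3.3; TMM scaling, quasi-likelihood F-test, Benjamini-Hochberg adjustment over 14936 genes), called at an adjusted p under 0.05. DESeq2 1.42.0 and limma 3.58.1 were alternatives. CPM are TMM-scaled. The fit was tested on simulated data. The samples sgRosa 3 and sgRosa 4 were summed, as described above. Ratios were compared with exact permutation tests over samples (scipy 1.17.1). Profiles used log2 CPM with a prior count of 2. Gene lengths came from GENCODE M21, promoters and positions from RefSeq GRCm38.p6.

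The 10 genes, the pathway lists and the marker lists were chosen with earlier results of these data known. Named with values are the 10 genes, Egfr, and the 2 genes of each pathway list with the smallest unadjusted p. The 3 genes nearest in profile to Ldha, Slc2a1 and Pygm are also named. Vegfa and the genes of the closing observations, outside this rule, were chosen after their values were seen. Other marker lists, by summed share of counts in sgEgfr and then sgRosa samples, were oligodendrocyte precursors (10 of 10 tested; 0.107% to 0.170% and 0.0832% to 0.102%), microglia (12 of 12; 0.0217% to 0.0474% and 0.0172% to 0.0341%), pericytes and smooth muscle (9 of 10, Tagln at 0; 0.0594% to 0.0784% and 0.0680% to 0.0735%), ependymal cells (8 of 8; 0.00360% to 0.123% and 0.00523% to 0.0441%), choroid plexus (4 of 6; 0.000649% to 0.00485% and 0.000523% to 0.00496%), red blood cells (5 of 5; 0.00112% to 0.0809% and 0.000380% to 0.0623%) and immediate early genes (18 of 18; 0.279% to 0.608% and 0.188% to 0.363%).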

Additional observations from a re-analysis of the deposited data

How the results depend on the processing

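No gene was called under any setting tried: edgeR with RLE scaling, no filter or a stricter one, 7 separate libraries, an endothelial or astrocyte score as covariate or any 1 sample left out, DESeq2, or limma-voom; the number of genes at an unadjusted p under 0.05 ran from 236 to 960, against 401. RLE scaling, both filters, DESeq2 and 7 libraries turned no direction. With the endothelial covariate the log2 fold change was -0.29 for Ldhb, 0.0040 for Slc16a1, -0.16 for Pygm and -0.040 for Gbe1, and with the astrocyte covariate -0.057 for Ldhb and 0.034 for Slc16a1. Relative to astrocyte markers, a scale chosen after seeing the data, it was -0.041 for Ldhb and -0.089 for Gbe1. In limma-voom it was 0.090 for Pygb, 0.16 for Gys1 and 0.18 for Egfr. Leaving out 1 sample in turn gave -0.052 to 0.40 for Ldha, -0.20 to 0.24 for Ldhb, -0.20 to 0.064 for Slc16a1, -0.36 to 0.34 for Pygb, -0.17 to 0.39 for Pygm, -0.34 to 0.24 for Gys1, -0.069 to 0.19 for Gbe1, -0.55 to 0.27 for Egfr, -0.20 to 3.23 for Emb and -0.022 to 0.27 for Pfkfb2. The Ldhb to Ldha ratio then differed by -0.24 to 0.0078 and the Pygb to Pygm ratio by -0.29 to 0.031 (log2). The cause was not tested. Replicate numbers went with likeness of the samples only in part. Deviations of same-numbered samples correlated at -0.11 for number 1, 0.52 for number 2 and 0.55 for sgEgfr 3 with sgRosa 3+4. With the replicate block, 0 genes were called and 705 had an unadjusted p under 0.05, and the log2 fold change was 0.11 for Pygb, 0.095 for Gys1, 0.060 for Egfr and 0.60 for Slc2a1 (edgeR unadjusted p 0.00937, adjusted p 0.953). Every sample except sgEgfr 1 and sgRosa 1 correlated best with its own number, a hint from the data and not from the design. With 3 samples per guide, the 95% intervals of the 10 genes reached from 0.16 to 1.17 above 0 and from 0.02 to 1.87 below.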

Other observations

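Several isoforms known mainly from other tissues were not detected or had low levels beside the forms described above, given as the mean ± SD over all 6 samples of CPM per kilobase of merged exons. Gys2, the liver glycogen synthase, Ldhc, the dehydrogenase of testis, Slc5a1, the intestinal sodium-glucose transporter, and Fbp2, the muscle fructose bisphosphatase, had 0 counts in all 7 libraries, which over 102946917 counts allows up to 0.0291 CPM. Pygl, the liver phosphorylase, had 0.459 ± 0.277 CPM per kilobase, below both Pygb and Pygm. Among hexokinases Hk1 had 8.70 ± 1.31 and Hk2 0.393 ± 0.139 CPM per kilobase. The aldolase gene Aldoc, which is also one of the 18 astrocyte markers, had 829 ± 301 and Aldoa 173 ± 26.6 CPM per kilobase. Bsg, the basigin chaperone of MCT1 and MCT4, had 183 ± 14.2 CPM per kilobase, against 1.85 ± 2.88 for Emb. These genes were chosen from the lists after their values were seen.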
